A study of Mus musculus with 2 samples.

Results

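The RNA-binding regulators described here are 10 genes, chosen by symbol, that set splicing and mRNA fate in developing neurons: the neuronal ELAVL genes *Elavl2*, *Elavl3* and *Elavl4*, the microexon regulators *Srrm3* and *Srrm4*, the polypyrimidine tract-binding genes *Ptbp1* and *Ptbp2*, the Musashi genes *Msi1* and *Msi2*, and *Rbpms*. The choice was made with earlier results of these data known. All 10 were found, 1 row each, among the 28692 genes listed in both count matrices. The most uneven of them between the sort gates was *Rbpms*, 36.2 times higher outside the cone gate, and the most cone-enriched was *Elavl2*, 5.12 times higher inside it, or 3.21 times with the gene-rich cells left in that the study's limit of 3500 genes removes. Progenitors, newborn neurons and the cones of the gate each held a different mixture. The *Ptbp2*-to-*Ptbp1* ratio was lower in progenitors and cycling neurogenic cells than in any neuronal group, and *Srrm4* was already high in neurogenic cells. The *Elavl2* share of *Elavl* transcripts was largest in cones inside the gate, while the few cone-like cells outside it held a smaller share.

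The cells came from E14.5 mouse retinas that carried a BAC transgene with GFP under *Lhx4* regulatory sequence (strain Tg(Lhx4::EGFP)KN199Gsat/Mmucd, kept as heterozygotes), so the transgene was present in both sort gates. Retinas of 2 litters were pooled before sorting, and the GFP+ cells (labelled as cone photoreceptors) and the GFP− cells (the other retinal cells) each gave 1 droplet library of 3′ transcript ends, in which unique molecular identifiers (UMIs) count molecules. There was therefore no replicate and no test: levels are summed UMIs per 1000000 (CPM), and the intervals in brackets are 95% exact intervals that cover counting error only. Each gene is compared across cells, and mixtures of related genes are compared only from group to group.

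ELAVL2, ELAVL3 and ELAVL4 (HuB, HuC and HuD) bind U-rich and AU-rich stretches of mRNA, and they stabilize transcripts and shift splicing in neurons. SRRM4 (nSR100) and its relative SRRM3 promote the inclusion of microexons, very short exons used mainly by neurons and photoreceptors. PTBP1 represses neuronal exons in non-neuronal and progenitor cells, and it also keeps PTBP2 low by making its transcript skip an exon, so that the loss of PTBP1 in newborn neurons goes with a gain of PTBP2. The Musashi proteins are known from neural stem cells, but photoreceptors also keep them and use them in splicing, and RBPMS is a widely used marker of retinal ganglion cells (RGCs).

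To show what lies in front of these genes, the 250 bases before an annotated start were taken from RefSeq (GRCm38.p6) and searched for the E-box forms bound by proneural bHLH factors. The form CAGCTG reads the same on either strand, while the other form, CAGATG, was searched on the opposite strand as well, where the same site is spelled CATCTG. Neither form overlapped the other in the windows shown. The windows printed were picked because they hold a match and show it in genes with unlike patterns, *Elavl3*, *Elavl4* and *Srrm4* on the one side and *Ptbp1* on the other. They run 5′ to 3′ on the gene's own strand, with matches in capitals.

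Elavl3, chr9:22052024-22052273, minus strand: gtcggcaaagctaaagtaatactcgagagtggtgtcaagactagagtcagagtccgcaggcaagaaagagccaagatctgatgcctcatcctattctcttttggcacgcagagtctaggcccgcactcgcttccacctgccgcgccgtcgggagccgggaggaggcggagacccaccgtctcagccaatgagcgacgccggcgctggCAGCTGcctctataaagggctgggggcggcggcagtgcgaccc

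Elavl4, chr4:110287528-110287777, minus strand: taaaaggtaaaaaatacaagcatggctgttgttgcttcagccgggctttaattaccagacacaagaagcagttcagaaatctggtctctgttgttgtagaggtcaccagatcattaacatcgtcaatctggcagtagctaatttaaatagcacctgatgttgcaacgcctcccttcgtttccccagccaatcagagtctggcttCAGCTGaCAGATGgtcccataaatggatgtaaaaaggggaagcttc

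Srrm4, chr5:116591818-116592067, minus strand: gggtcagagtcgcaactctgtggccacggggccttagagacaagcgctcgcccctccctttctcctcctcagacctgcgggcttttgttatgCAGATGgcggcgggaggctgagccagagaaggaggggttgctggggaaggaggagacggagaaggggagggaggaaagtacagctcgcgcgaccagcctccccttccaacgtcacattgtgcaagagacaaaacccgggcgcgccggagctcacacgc

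Ptbp1, chr10:79854182-79854431, plus strand: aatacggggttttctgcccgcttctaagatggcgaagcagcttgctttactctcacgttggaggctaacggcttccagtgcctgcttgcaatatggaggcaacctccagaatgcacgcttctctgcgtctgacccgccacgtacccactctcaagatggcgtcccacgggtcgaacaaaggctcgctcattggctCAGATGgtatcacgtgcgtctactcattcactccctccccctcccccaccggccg

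The *Elavl3* window held a CAGCTG that began 43 bases before the start, and the *Elavl4* window, in front of a start inside the gene, held CAGCTG and CAGATG 1 base apart, beginning 46 and 39 bases before it. The match began 158 bases before the start in *Srrm4* and 55 bases before it in *Ptbp1*. Windows were found for 8 of the 10 genes, all but *Msi1* and *Rbpms*, and 7 of their 18 windows, in 5 genes, held a match. The fifth gene was *Srrm3*, with a match that began 249 bases before its start. The *Elavl4* pair lies in overlapping windows of neighbouring starts, so the 7 windows count it more than once. The 6 windows of *Elavl2*, those of *Ptbp2* and *Msi2*, and the window of the most upstream start of *Elavl4* held none, although *Elavl2* was also higher in neurogenic cells. Of all 32851 windows of 27025 genes, 25.5% held a match. That is a share of windows, and the share of genes was not taken. The match is a description of the letters and no evidence of binding, and it was present in *Ptbp1*, lower in most neuronal groups, as well as in genes that were higher.

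The libraries differed in UMIs per cell, which touches every share of cells given here. After cells with over 3500 genes were removed, 3689 GFP+ cells (median 3894 UMIs) and 3389 GFP− cells (median 8848 UMIs) were left, and the removed cells were 39 GFP+ and 1055 GFP− cells. The differentiated RGC-like group held 262 cells under that limit and 793 without it. The libraries shared 20 cell barcodes, 15 of them among the kept cells. Scrublet marked 3 GFP+ cells (0.0805%) and 55 GFP− cells (1.24%) as doublets, only 2 of which were among the kept cells, so leaving them out tests little. *Lhx4* itself was at 139 CPM in the GFP+ and 1.66 CPM in the GFP− library.

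Cell groups were set by UMIs of marker genes, none of them a gene described here. A cone-like cell had UMIs of at least 3 of 6 cone genes, and cone-like cells numbered 3516 in the GFP+ library (95.3%) and 54 in the other. The GFP− library held 1782 multipotent retinal progenitor (RPC)-like cells (727 with and 1055 without mitotic transcripts), 420 cycling and 136 non-cycling neurogenic cells (UMIs of at least 2 of *Olig2*, *Neurog2*, *Atoh7* and *Dll1*), 225 newborn and 262 differentiated RGC-like cells, and 274 amacrine/horizontal (AC/HC)-like cells. RGC-like cells had UMIs of at least 2 of *Pou4f2*, *Pou4f1* and *Isl1*. Cells with at least 1 of these and at least 2 of *Gap43*, *Nefl*, *Nefm* and *Sncg* also counted. Those with at least 3 of the last 4 genes were named differentiated, the others newborn. Their median depths were 11636 and 9448 UMIs, and the part of depth in this split was not tested. AC/HC-like cells had UMIs of at least 2 of *Tfap2a*, *Tfap2b*, *Ptf1a* and *Lhx1*. Cells with *Otx2* and *Crx* UMIs that met no cone, RGC or AC/HC rule numbered 90 in the GFP− and 114 in the GFP+ library. Of the latter, 30 had under 3200 UMIs. Cones with UMIs of fewer than 3 cone genes would fall in this group, and their part in it was not tested. Genes kept out of the rules were read as a check of the names. *Prdm1* and *Aipl1* were at 364 and 34.2 CPM in GFP+ cone-like cells and at 0 in AC/HC-like cells. *Prdm1* was also at 320 CPM (274 to 370) in GFP+ and 132 CPM in GFP− *Otx2*/*Crx* cells. It thus hardly separated cone-like from *Otx2*/*Crx* cells within the GFP+ library. *Aipl1* was lower in GFP+ *Otx2*/*Crx* cells, with 8 UMIs (interval 6.27 to 28.6 CPM). *Prdm13* was at 228 CPM in AC/HC-like cells against at most 33.5 CPM elsewhere. *Stmn2* was highest in differentiated RGC-like cells at 4140 CPM but reached 2076 CPM in AC/HC-like cells, and *Ina*, at 1176 and 954.6 CPM, hardly separated them. *Gad2* did not separate AC/HC-like cells (79.6 CPM) from newborn RGC-like cells (80.1 CPM). *Ebf3* was at 154 CPM in differentiated RGC-like and 7.96 CPM in AC/HC-like cells. *Onecut2* was at 1011 CPM in AC/HC-like cells and at most 254 CPM in the other groups. *Hes6* was at 2390 and 1740 CPM in cycling and non-cycling neurogenic cells, 1390 CPM in GFP− *Otx2*/*Crx* and 285 CPM in RPC-like cells. For the RPC name, *Nr2e1* was at 107 CPM in RPC-like, 35.3 CPM in cycling neurogenic and 21.2 CPM in newborn RGC-like cells. *Dapl1* was at 891 CPM in RPC-like and 319 CPM in cycling neurogenic cells. *Ccnd1* separated these 2 groups less, at 2149 and 1851 CPM. The rarer cone-like cells of the GFP− library had *Prdm1* at 268 CPM and *Rd3* at 18.4 CPM (5 UMIs). Their *Aipl1* was at 0, which allows up to 11.02 CPM. Of the markers of other tissues (3 each for vessels, microglia, pigment epithelium, red cells and lens), the vessel gene *Cldn5* stood out at 323 CPM in AC/HC-like cells, where the vessel list summed to 326 CPM with 1 of its 3 genes at 0, and the vessel list summed to 50.3 CPM in non-cycling neurogenic cells. The microglia gene *C1qa* was at 27.5 CPM in GFP+ cone-like cells, where the microglia list summed to 27.8 CPM with 1 of its 3 genes at 0. The part of such cells in the values was not tested.

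Between the gates, *Elavl2* was the 1 gene of the 10 that was at least 2-fold higher in GFP+ cells, while *Elavl3*, *Ptbp1* and *Rbpms* were at least 2-fold lower. All 10 genes had the 50 UMIs in both libraries together that such a call required. Of the 12825 genes with as many, 21.3% (2730 genes) were at least 2-fold higher in the GFP+ library and 14.2% (1819 genes) at least 2-fold lower, a split that TMM factors turned to 1796 higher and 2400 lower, with a median log2 ratio of 0.30 over all of them and 0.23 over the 10. The share called higher was thus no smaller among all genes than the 1 in 10 seen here, while 3 in 10 were called lower. As the 10 were chosen with earlier results of these data known, these counts only describe them.

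*Elavl2* was at 165 CPM (158 to 171) in the GFP+ library and 32.1 CPM (30.1 to 34.2) in the GFP− library, a ratio of 5.12 (4.75 to 5.52), which was 3.21 with the cells over 3500 genes left in. Its relative *Elavl3* went the other way, with 52.6 CPM inside the gate against 231 CPM outside it, 4.38 times lower (4.07 to 4.72). *Elavl4* was 72.6 CPM inside and 138 CPM outside, a ratio of 0.528 (0.494 to 0.564). Other settings took it past 2-fold: it was 0.290 with the cells over 3500 genes left in and 0.421 with TMM factors. Both microexon regulators were higher in GFP+ cells without reaching 2-fold, *Srrm3* by 1.94 (1.76 to 2.15) and *Srrm4* by 1.82 (1.71 to 1.95). *Ptbp1* was 50.1 CPM against 110 CPM, 2.21 times lower (2.04 to 2.39), and *Ptbp2* was 170 CPM against 101 CPM, 1.69 times higher (1.60 to 1.78). With the cells over 3500 genes left in, *Ptbp1* was at a ratio of 0.505, just outside the 2-fold limit. *Msi1* was 1.49 times higher (1.44 to 1.54) in GFP+ cells and *Msi2* was nearly level, at 0.922 (0.861 to 0.987). *Rbpms* gave 11 UMIs in the GFP+ library against 774 in the GFP− library, 36.2 times lower (20.1 to 72.9).

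**Figure D1:**
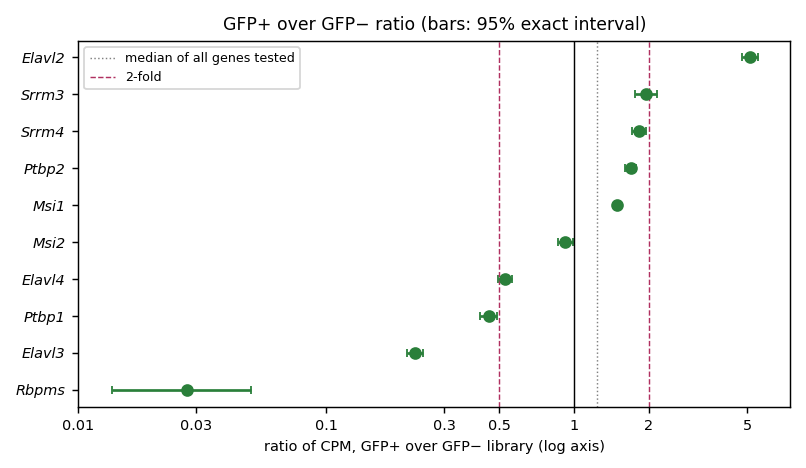
Ratio of CPM in the GFP+ over the GFP− library (log axis) for each of the 10 genes, with 95% exact intervals of the counts as bars. *Elavl2* stands alone above 2-fold at 5.12, and *Elavl3*, *Ptbp1* and *Rbpms* lie below 0.5, with *Rbpms* farthest out.

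The gate compares cones with a mixture of progenitors and neurons, so the levels in the cell groups are given next.  For the values of GFP+ cone-like cells against GFP− groups, library and cell group coincide and cannot be told apart either.

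**Figure D2:**
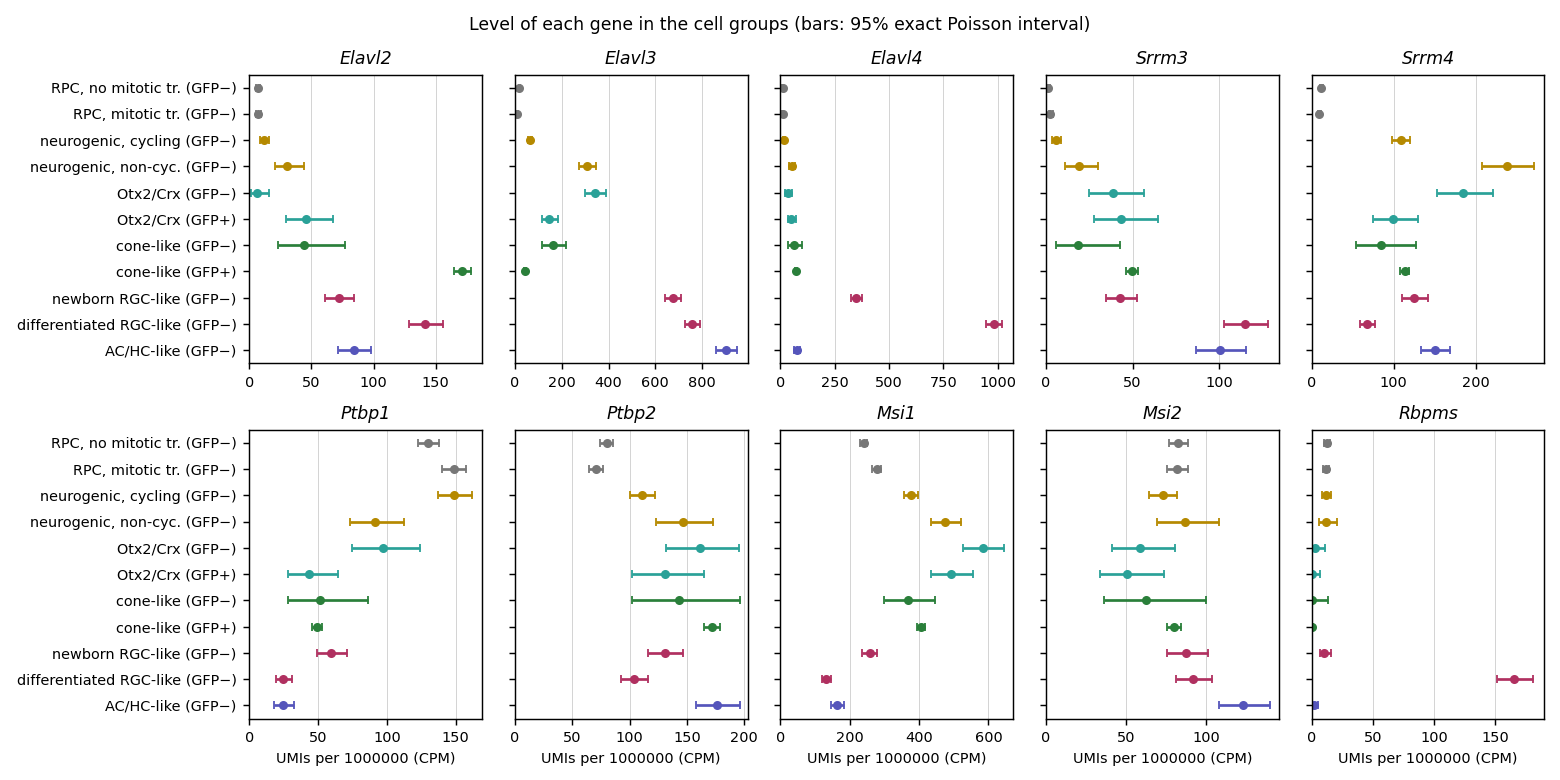
Level of each gene in CPM (horizontal axis, from 0, a scale per gene) in each cell group of at least 50 cells (vertical axis), with 95% exact Poisson intervals as bars. *Elavl2* is high in GFP+ cone-like and differentiated RGC-like cells (their order turns with TMM factors), *Elavl4* and *Rbpms* peak in differentiated RGC-like cells, *Elavl3* in AC/HC-like cells, *Srrm4* in non-cycling neurogenic cells and *Ptbp1* in RPC-like and cycling neurogenic cells.

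*Elavl3* (chr9:22015005-22052023, minus strand) was the *Elavl* gene with the largest rise from RPC-like to neurogenic cells. It was at 18.6 CPM in RPC-like cells without and 10.0 CPM in those with mitotic transcripts, at 65.4 CPM (57.5 to 74.1) in cycling and 308 CPM (274 to 345) in non-cycling neurogenic cells. In the GFP− library it then stood at 343 CPM in *Otx2*/*Crx* cells, 675 CPM in newborn and 758 CPM in differentiated RGC-like cells (an order that turned in thinned cells, at a ratio of 0.796), and 903 CPM (861 to 947) in AC/HC-like cells. Every neuronal group of the GFP− library was thus above the cycling neurogenic and RPC-like cells. GFP+ cone-like cells were the exception among the neurons, with 44.0 CPM (40.7 to 47.5), below even the cycling neurogenic cells. GFP− cone-like cells held 162 CPM (117 to 217), the lowest of the GFP− neuronal groups but above the cycling neurogenic cells. The 343 CPM in GFP− and 147 CPM (117 to 183) in GFP+ *Otx2*/*Crx* cells stood above the 44.0 CPM of GFP+ cone-like cells. The latter were 7.80 (6.67 to 9.10) and 3.34 (2.62 to 4.22) times lower. These last comparisons were chosen after the levels were seen.

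*Elavl2* (chr4:91250763-91400785, minus strand) had nearly the opposite order over the *Otx2*/*Crx* and cone-like groups. It gave 4 UMIs (6.16 CPM, 1.68 to 15.8) in GFP− *Otx2*/*Crx* cells, 45.4 CPM (29.4 to 67.0) in GFP+ *Otx2*/*Crx* cells, 44.1 CPM (22.8 to 77.0) in GFP− cone-like cells and 171 CPM (165 to 178) in GFP+ cone-like cells. Differentiated RGC-like cells held 142 CPM (128 to 156), and which of the 2 groups was highest rests on the scaling, with cones 1.21 times above by totals and at a ratio of 0.910 with TMM factors. Below them were AC/HC-like cells with 83.9 CPM and newborn RGC-like cells with 72.1 CPM, whose ratio of 1.16 was within counting error. Non-cycling neurogenic cells were at 30.4 CPM, cycling ones at 11.7 CPM, and RPC-like cells at 7.02 CPM with and 6.70 CPM without mitotic transcripts. GFP+ cone-like cells were 3.78 times above GFP+ *Otx2*/*Crx* cells (2.55 to 5.85), a difference within 1 library.

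*Elavl4* (chr4:110203722-110351909, minus strand) was mainly a ganglion cell transcript. It reached 985 CPM (949 to 1021) in differentiated RGC-like cells and 349 CPM (324 to 375) in newborn ones, a ratio of 2.82 (2.60 to 3.06). No other group exceeded the 76.5 CPM (64.47 to 90.01) of AC/HC-like cells, which GFP+ cone-like cells (72.4 CPM) and GFP− cone-like cells (62.5 CPM) did not differ from beyond counting error. Where every group rule required 1 more marker, GFP+ cone-like cells were at a ratio of 0.596 to AC/HC-like cells. Neurogenic cells held 52.4 CPM when non-cycling and 17.5 CPM when cycling, and RPC-like cells 10.9 and 10.46 CPM. Newborn RGC-like cells were 4.56-fold above AC/HC-like cells (3.81 to 5.49).

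Summed over the 3 genes, neuronal *Elavl* transcripts ranged from 27.5 CPM in RPC-like cells with mitotic transcripts to 1884.5 CPM in differentiated RGC-like cells, and GFP+ cone-like cells held 288 CPM. The mixture separated the neurons. *Elavl2* made up 59.6% (58.1 to 61.1) of these UMIs in GFP+ cone-like cells, 16.4% (8.79 to 27.0) in GFP− cone-like cells, 18.7% (12.45 to 26.30) in GFP+ *Otx2*/*Crx* cells and 1.60% (0.438 to 4.05) in GFP− *Otx2*/*Crx* cells. *Elavl3* made up 84.9% (83.3 to 86.5) in AC/HC-like cells and 89.2% (84.7 to 92.8) in GFP− *Otx2*/*Crx* cells, and *Elavl4* made up 52.2% (50.9 to 53.6) in differentiated RGC-like cells. The 54 GFP− cone-like cells, few and with 73 such UMIs, were thus nearer in this mixture to the *Otx2*/*Crx* cells of the GFP+ library than to its cones.

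**Figure D3:**
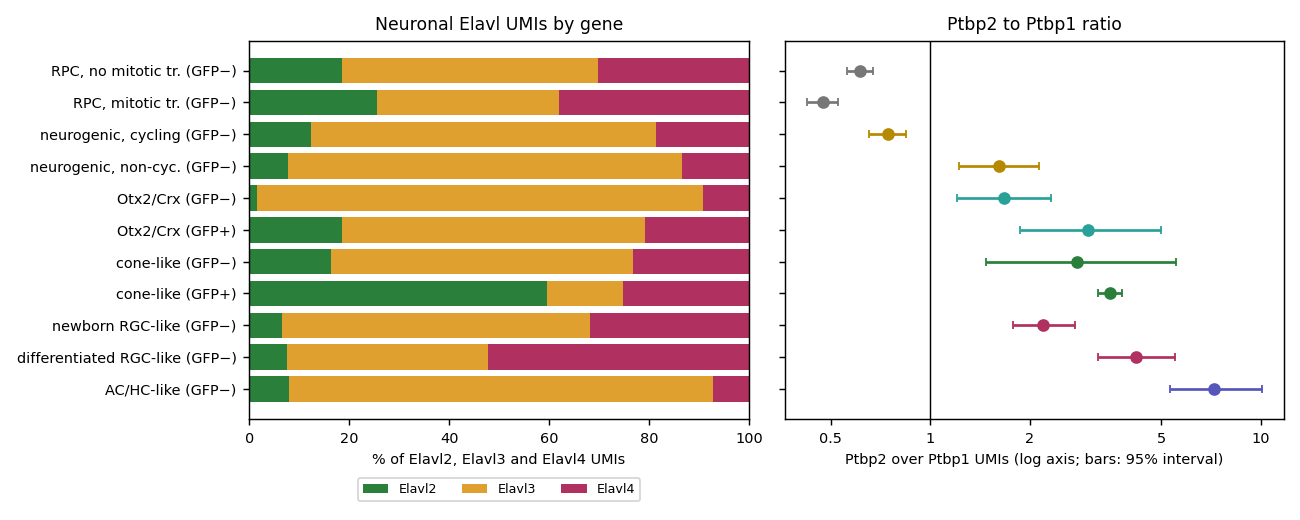
Left, share of *Elavl2*, *Elavl3* and *Elavl4* in the summed UMIs of the 3 genes (percent, bars to 100) by cell group. Right, *Ptbp2* over *Ptbp1* UMIs by cell group (log axis, bars are 95% exact intervals): the ratio runs from 0.474 in RPC-like cells with mitotic transcripts to 7.22 in AC/HC-like cells.

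*Srrm4* (chr5:116439275-116591817, minus strand) was low in progenitors and highest in non-cycling neurogenic cells. RPC-like cells held 11.9 CPM without and 9.22 CPM with mitotic transcripts, cycling neurogenic cells 108 CPM (98.2 to 119) and non-cycling ones 238 CPM (208 to 271), 22.2 times the RPC-like level. *Otx2*/*Crx* cells of the GFP− library followed with 185 CPM, then AC/HC-like cells with 150 CPM, newborn RGC-like cells with 125 CPM and GFP+ cone-like cells with 114 CPM (108 to 119). Its lowest level among neurons was in differentiated RGC-like cells, 67.5 CPM (58.4 to 77.7), 1.86 times (1.54 to 2.24) below newborn ones. The 84.5 CPM of GFP− cone-like cells did not differ from it beyond counting error, at a ratio of 1.25 (0.775 to 1.93).

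*Srrm3* (chr5:135806890-135874772, plus strand) was highest in differentiated neurons instead. It gave 30 UMIs over the 1782 RPC-like cells (1.82 CPM), 5.85 CPM in cycling and 18.9 CPM in non-cycling neurogenic cells, and 38.5 CPM in GFP− *Otx2*/*Crx* cells. Its highest levels were in differentiated RGC-like cells (115 CPM, 103 to 128) and AC/HC-like cells (100 CPM, 86.5 to 116), which did not differ beyond counting error. GFP+ cone-like cells (49.6 CPM), GFP+ *Otx2*/*Crx* cells (43.6 CPM) and newborn RGC-like cells (42.9 CPM) lay close together below them. GFP− cone-like cells gave 5 UMIs (18.4 CPM), and GFP+ cone-like cells were 2.70 times above them (1.15 to 8.33). The ratio of *Srrm3* to *Srrm4* UMIs was lowest in cycling neurogenic cells, 0.0539 (0.0334 to 0.0828), stood at 0.342 in newborn RGC-like and 0.437 in GFP+ cone-like cells, and reached 1.70 (1.42 to 2.04) in differentiated RGC-like cells. Each gene overlaps an antisense gene in the annotation (*Srrm3os* and *Srrm4os*), which the files list as separate rows.

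*Ptbp1* (chr10:79854427-79864771, plus strand) was highest in cycling neurogenic and RPC-like cells and lowest in differentiated RGC-like and AC/HC-like cells. Cycling neurogenic cells held 149 CPM (137 to 162), RPC-like cells 148 CPM with and 130 CPM without mitotic transcripts, GFP− *Otx2*/*Crx* cells 96.9 CPM, and non-cycling neurogenic cells 91.1 CPM (73.0 to 112). Newborn RGC-like cells had 59.4 CPM, while GFP− cone-like, GFP+ cone-like and GFP+ *Otx2*/*Crx* cells had 51.4, 49.1 and 43.6 CPM. The steps from each of these 4 groups to the next among them were within counting error. Differentiated RGC-like and AC/HC-like cells were at 24.8 CPM (19.4 to 31.2) and 24.4 CPM (17.9 to 32.6). The GFP+ cone-like level was near that of newborn RGC-like cells and 1.98 times (1.55 to 2.56) that of differentiated ones.

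*Ptbp2* (chr3:119718742-119784466, minus strand) varied much less. Its levels ran from 70.3 CPM in RPC-like cells with mitotic transcripts and 79.9 CPM without, over 104 CPM in differentiated RGC-like, 111 CPM in cycling neurogenic, 131 CPM in newborn RGC-like and 147 CPM in non-cycling neurogenic cells, to 162 CPM in GFP− *Otx2*/*Crx*, 172 CPM (165 to 179) in GFP+ cone-like and 176 CPM (158 to 196) in AC/HC-like cells. The ratio of *Ptbp2* to *Ptbp1* UMIs was 0.474 (0.425 to 0.527) in RPC-like cells with and 0.614 (0.560 to 0.674) in those without mitotic transcripts, and 0.745 (0.655 to 0.847) in cycling neurogenic cells. It was 1.61 (1.22 to 2.13) in non-cycling neurogenic cells (1.14 after thinning to equal depth), 1.67 in GFP− *Otx2*/*Crx* cells, 2.20 in newborn and 4.18 (3.22 to 5.48) in differentiated RGC-like cells (6.67 after thinning), 3.49 (3.21 to 3.80) in GFP+ cone-like cells and 7.22 (5.29 to 10.1) in AC/HC-like cells. The thinned values rest on groups set again from the thinned counts, which need not hold the same cells. From the lowest to the highest group, *Ptbp1* spanned 24.4 to 149 CPM and *Ptbp2* the narrower range of 70.3 to 176 CPM. *Mir124a-1hg*, a host transcript of miR-124, which represses *Ptbp1*, was at 3.69 CPM in RPC-like, 29.8 CPM in cycling and 75.4 CPM in non-cycling neurogenic, 165 CPM in GFP+ cone-like and 169 CPM in AC/HC-like cells. Another host, *Mir124-2hg*, did not follow this order, with 115 CPM in RPC-like, 108 CPM in cycling and 153 CPM in non-cycling neurogenic, 105 CPM in GFP+ cone-like and 491 CPM in AC/HC-like cells. The RGC-like groups are not among those listed, though differentiated RGC-like cells were among the lowest in *Ptbp1*. Both host transcripts were looked at after the *Ptbp1* levels were known, and a link of either to *Ptbp1* was not tested.

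*Msi1* (chr5:115429599-115455698, plus strand) peaked in *Otx2*/*Crx* cells. It was at 583 CPM (526 to 645) in those of the GFP− and 492 CPM (435 to 554) in those of the GFP+ library, followed by 476 CPM in non-cycling neurogenic cells, 405 CPM (395 to 416) in GFP+ cone-like, 377 CPM in cycling neurogenic and 367 CPM in GFP− cone-like cells. RPC-like cells held 277 CPM with and 240 CPM without mitotic transcripts, and newborn RGC-like cells 257 CPM. AC/HC-like cells (164 CPM) and differentiated RGC-like cells (133 CPM, 120 to 147) were lowest. Each *Otx2*/*Crx* and cone-like group was therefore above the RPC-like cells by totals, and the differentiated RGC-like and AC/HC-like cells were below them. GFP− cone-like cells were not above the cycling neurogenic cells, and GFP+ cone-like cells were below the non-cycling ones. *Msi2* (chr11:88339382-88718513, minus strand) stayed between 50.8 CPM in GFP+ *Otx2*/*Crx* cells and 123 CPM (108 to 140) in AC/HC-like cells, and GFP+ cone-like cells (79.8 CPM) and RPC-like cells (82.3 CPM) did not differ beyond counting error. The ratio of *Msi2* to *Msi1* UMIs was 0.1003 (0.0699 to 0.140) and 0.103 (0.0674 to 0.153) in the *Otx2*/*Crx* cells of the libraries, 0.197 in GFP+ cone-like and 0.321 in RPC-like cells, and 0.694 and 0.751 in differentiated RGC-like and AC/HC-like cells.

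*Rbpms* (chr8:33782643-33929863, minus strand) marked 1 group. Differentiated RGC-like cells held 166 CPM (151 to 181), and the next group 12.3 CPM, 13.5 times less. With the cells over 3500 genes left in, 793 differentiated RGC-like cells in all, its level was 223 CPM (215 to 232). Newborn RGC-like cells were at 10.4 CPM (6.50 to 15.7), a ratio of 0.870 to RPC-like cells (11.9 CPM) that was within counting error (1.90 in thinned cells). Differentiated ones were 15.98 times above them (10.4 to 25.7), or 7.31 times in thinned cells. RPC-like, neurogenic and newborn RGC-like cells all lay between 10.4 and 12.3 CPM. The gene was nearly absent from cone-like, *Otx2*/*Crx* and AC/HC-like cells. It gave 5 UMIs in 3516 GFP+ cone-like cells (0.343 CPM) and 0 in 54 GFP− cone-like cells (which allows up to 11.02 CPM). There were 0 in 114 GFP+ *Otx2*/*Crx* cells (up to 5.45 CPM), 2 in GFP− *Otx2*/*Crx* cells and 4 in AC/HC-like cells (2.12 CPM).

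Because GFP− cells held more UMIs per cell, shares of cells with a UMI were also taken after each cell was thinned to 3200 UMIs. Depth also went with cell group: in the GFP− library the median ran from 4611.5 UMIs in cone-like to 11636 in differentiated RGC-like cells. In GFP+ cone-like cells it was 3880 UMIs. How far library or cell type set the depth was not tested. The thinning left out 579 shallower GFP+ and 28 shallower GFP− cells. These shares kept the groups set on whole cells. Thinned, *Elavl2* was found in 31.7% (30.01 to 33.38) of GFP+ cone-like cells (37.1% unthinned), in 32.8% (27.2 to 38.9) of differentiated RGC-like cells (71.8% unthinned) and in 2.03% (1.43 to 2.80) of RPC-like cells (5.72% unthinned). *Elavl3* was found in 91.6% of differentiated RGC-like, 89.0% of AC/HC-like and 77.1% of newborn RGC-like cells, in 10.6% (9.49 to 11.7) of GFP+ cone-like cells and in 3.78% of RPC-like cells. *Ptbp1* was found in 35.0% (32.8 to 37.3) of RPC-like, 14.497% of GFP+ cone-like and 6.11% of differentiated RGC-like cells, against 69.9%, 18.0% and 24.0% unthinned. *Rbpms* was found in 34.0% of differentiated RGC-like cells and 0.101% (0.0208 to 0.294) of GFP+ cone-like cells. RPC-like cells serve as the background for neuronal genes: *Stmn2*, a transcript of neurons, was at 50.2 CPM in them against 4140 CPM in differentiated RGC-like cells, and the part of free RNA in *Elavl* levels of about 10 CPM was not tested.

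**Figure D4:**
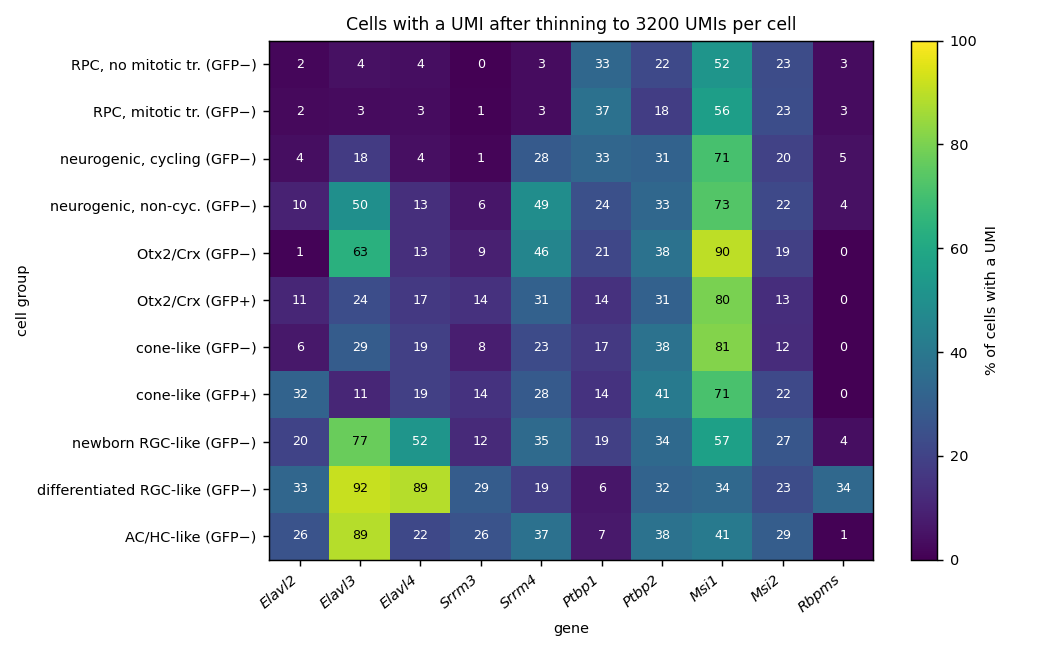
Share of cells with a UMI after thinning each cell to 3200 UMIs (percent, colour and number) for the 10 genes (columns) in the cell groups (rows). *Elavl3* reaches 91.6% in differentiated RGC-like cells and 10.6% in GFP+ cone-like cells, and *Elavl2* 32.8% and 31.7% in the same groups.

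Counted at 2-fold against all RPC-like cells, more of the 10 genes were called, higher and lower together, in neuronal than in neurogenic groups. More of all genes were called higher there too, except in newborn RGC-like cells. Outside these cells the rise therefore does not set the 10 apart. Newborn RGC-like cells were near level with non-cycling neurogenic cells, at 7.39% against 7.53% of all genes higher and 14.7% against 15.6% lower. Their order in genes called higher turned with TMM factors, at 657 against 603 genes. These comparisons share the RPC-like cells. In cycling neurogenic cells, *Elavl3* (4.41-fold), *Srrm3* (3.22-fold) and *Srrm4* (10.1-fold) were higher and none of the 10 lower, where 3.31% of all genes were called higher and 6.91% lower. In non-cycling neurogenic cells, *Elavl2*, *Elavl3*, *Elavl4* and *Srrm4* were higher, 4 of the 9 with enough UMIs, and none lower, against 7.53% and 15.6% of all genes. *Srrm3*, with 48 UMIs in both sums, fell short of the limit there. In GFP− *Otx2*/*Crx* cells 6 were higher (*Elavl3*, *Elavl4*, *Srrm3*, *Srrm4*, *Ptbp2* and *Msi1*) and *Rbpms*, with 2 UMIs, was lower (3.87 times, 1.06 to 32.2), against 11.9% and 18% of all genes (1266 higher and 1923 lower, or 726 and 2417 with TMM factors). *Ptbp2* and *Msi1* are called there by the scaling to totals: with TMM factors they were at 1.77-fold and 1.89-fold.

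In GFP− cone-like cells 4 of 9 were higher (*Elavl2*, *Elavl3*, *Elavl4* and *Srrm4*) and *Ptbp1* and *Rbpms* were lower, against 18.2% and 21.4% of all genes (1933 and 2273, or 1168 and 2863 with TMM factors). *Rbpms* counts as lower there by its 0 UMIs alone: the interval of its ratio reaches 1.15, so a difference was not detectable at this depth. In newborn RGC-like cells the 3 *Elavl* and both *Srrm* genes were higher and *Ptbp1* was lower, against 7.39% and 14.7%. Differentiated RGC-like cells added *Rbpms* to those 5, with *Ptbp1* again lower, against 14.9% and 21.6%. With the cells over 3500 genes left in, *Msi1* joined *Ptbp1* as lower there, at a ratio of 0.481 in place of 0.518. AC/HC-like cells had the 5 and *Ptbp2* higher, and *Ptbp1* and *Rbpms* lower, against 15.9% and 18.7%. GFP+ cone-like cells had the same 6 higher and the same 2 lower as AC/HC-like cells, against 27.4% and 13.7% of all genes (3345 and 1673, or 2147 and 2374 with TMM factors), but *Ptbp2* was at 1.70-fold with TMM factors. The median log2 ratio of the 10 to RPC-like cells was 3.23 in differentiated RGC-like and 1.38 in GFP+ cone-like cells, where that of all genes was -0.11 and 0.40.

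GFP+ cone-like cells had less *Elavl3* and more *Msi1* than either differentiated RGC-like or AC/HC-like cells. Compared with differentiated RGC-like cells, GFP+ cone-like cells had *Msi1* 3.05 times higher (2.75 to 3.40), and *Elavl3* 17.2 times (15.8 to 18.8), *Elavl4* 13.6 times (12.7 to 14.6), *Srrm3* 2.32 times (2.03 to 2.65) and *Rbpms* 483 times (205 to 1494) lower. Of all genes, 31% were higher and 8.71% lower (3458 and 971, or 2188 and 1537 with TMM factors). *Elavl2* was at 1.21 (1.09 to 1.35) and *Srrm4* at 1.68 (1.45 to 1.96). The *Srrm3* call against RGC-like cells ended with the cells over 3500 genes left in, at a ratio of 0.503, and *Ptbp1*, at 1.98, passed 2-fold under 4 other settings, up to 2.90 in thinned cells.

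Compared with AC/HC-like cells, GFP+ cone-like cells had *Msi1* 2.47 times (2.20 to 2.78), *Elavl2* 2.04 times (1.74 to 2.42) and *Ptbp1* 2.01 times (1.49 to 2.77) higher, and *Elavl3* 20.5 times (18.7 to 22.5) and *Srrm3* 2.02 times (1.72 to 2.38) lower, against 23.7% and 8.11% of all genes (2623 and 896, or 2093 and 1154 with TMM factors). Of these, *Msi1* and *Elavl3* kept their calls in every setting tried, while *Elavl2* was at 1.76-fold and *Ptbp1* at 1.73-fold with TMM factors, and *Srrm3* was at a ratio of 0.509 with the cells over 3500 genes left in. *Elavl4* (0.947, 0.795 to 1.14) and *Ptbp2* (0.974, 0.869 to 1.10) did not differ beyond counting error. With 1 more marker required in every group rule, however, *Elavl4* was at 0.596. *Rbpms*, with 5 and 4 UMIs, had too few for a call.

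Splits inside a group moved none of the genes with enough UMIs (9 of the 10 in each split) past 2-fold. For RPC-like cells with over without mitotic transcripts, 2.49% of all genes were at least 2-fold higher and 1.04% lower. *Elavl3* came nearest, at 0.541 (0.405 to 0.715), and *Ptbp1* was at 1.14 (1.05 to 1.24). For GFP+ cone-like cells with a *Fabp7* UMI (1431) over those without (2085), 0.308% of all genes were higher and 0.457% lower. *Elavl3* was 59.9 CPM with and 31.5 CPM without *Fabp7*, 1.90 times higher (1.62 to 2.24), while *Elavl2* was 115 CPM with and 216 CPM without, 1.88 times lower (1.72 to 2.05), and *Elavl4* was 1.58 times lower (1.38 to 1.80). *Srrm3*, *Srrm4* and *Ptbp2* were at 1.02, 1.01 and 0.997. The median depth was 4147 UMIs with and 3731 UMIs without *Fabp7*. In thinned cells *Elavl2* was found in 23.1% with and 38.2% without, and *Elavl3* in 14.02% and 7.96%.

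For GFP+ cone-like cells with a UMI of the amino acid transporter genes *Slc7a3* or *Slc7a5* (440) over those without (3076), 1.86% of all genes were higher and 1.06% lower. *Elavl4* was 119 CPM with and 65.5 CPM without, 1.82 times higher (1.56 to 2.11), and *Msi1* was 1.19 times lower (1.10 to 1.29). The intervals of the other genes included 1. Among GFP+ cone-like cells with an *Elavl3* UMI, a split made after the levels were seen, *Elavl2* was 99.4 CPM (86.5 to 114), against 184 CPM (176 to 192) in those without. *Stmn2* was 470 CPM and *Rd3* 18.1 CPM in the cells with *Elavl3*, against 259 and 40.8 CPM in those without. *Aipl1* was 19.97 CPM with and 36.6 CPM without, while *Ina* (195 and 217 CPM), *Prdm1* (354 and 366 CPM) and *Lhx4* (133 and 147 CPM) were closer. Their median depths were 4484 and 3810 UMIs.

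Of a wider set of 50 further RNA-binding genes, which also held the transcriptional repressor *Rest*, 46 had enough UMIs in GFP+ cone-like against RPC-like cells. Of these 13 were at least 2-fold higher, a share near the 27.4% of all genes, and 9 at least 2-fold lower, where 13.7% of all genes were, so the names that follow describe the set and do not set it apart. Those higher were the CELF genes *Celf3*, *Celf4*, *Celf5* and *Celf6*, the polyadenylation factors *Cpeb2*, *Cpeb3* and *Cpeb4*, the splicing regulators *Mbnl1*, *Mbnl2*, *Rbfox1*, *Rbfox3* and *Rbm24*, and the cold-inducible *Cirbp*. *Celf3* was at 393 CPM in these cones and 5.57 CPM in RPC-like cells, and *Rbm24* at 151 CPM against 1.09 CPM. Those lower were *Khdrbs2*, *Khdrbs3*, *Mbnl3*, *Nova2*, *Qk*, *Rbfox2*, *Rbm3*, *Rbpms2* and *Rest*. *Rest*, which represses neuronal genes, *Srrm4* among them, in non-neuronal cells, was at 57.1 CPM in RPC-like cells. It was at 27.9 CPM in cycling and 14.7 CPM in non-cycling neurogenic cells. GFP+ cone-like, differentiated RGC-like and AC/HC-like cells held 10.4, 3.45 and 2.12 CPM. A link of *Rest* to the *Srrm4* levels was not tested.

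In differentiated RGC-like cells 11 of 42 were higher and 7 lower, beside 14.9% and 21.6% of all genes, and in AC/HC-like cells 8 of 38 were higher and 7 lower, beside 15.9% and 18.7%. The RBFOX genes, which regulate neuronal exons, each had an order of their own. *Rbfox2* was at 14.2 CPM in GFP+ cone-like cells, 292 CPM in differentiated RGC-like and 288 CPM in AC/HC-like cells, *Rbfox1* was at 61.4, 22.4 and 9.56 CPM, and *Rbfox3* at 32.1, 41.7 and 5.84 CPM. *Rbpms2*, the closest relative of *Rbpms*, was at 297 CPM in differentiated and 110 CPM in newborn RGC-like cells, 34.7 CPM in RPC-like and 17.4 CPM in GFP+ cone-like cells. The ubiquitous relatives *Elavl1* and *Ptbp3* varied less: *Elavl1* ran from 76.5 CPM in differentiated RGC-like to 248 CPM in non-cycling neurogenic cells, and *Ptbp3* from 14.7 to 28.6 CPM. The counts in the remaining comparisons stand beside the shares of all genes given with each of them. Between the gates 10 of 46 were higher and 8 lower. In cycling neurogenic cells the counts were 2 and 3 of 39, in non-cycling ones 3 and 5 of 37, in GFP− *Otx2*/*Crx* cells 1 and 10 of 37, in GFP− cone-like cells 5 and 8 of 38, and in newborn RGC-like cells 6 and 5 of 40. Against differentiated RGC-like cells GFP+ cone-like cells had 9 of 45 higher and 8 lower, and against AC/HC-like cells 8 of 43 and 8. The mitotic, *Fabp7* and amino acid transporter splits gave 0 and 1, 0 and 1, and 1 and 1.

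Genes with the most similar pattern were looked for over 10 groups, the 9 GFP− groups and the GFP+ cone-like cells, among 8202 genes, by Pearson correlation of log2(CPM + 10). The points share 2 libraries and differ in depth, so the values only describe likeness. *Elavl3* was most like the tubulin gene *Tubb3* (r = 0.987), then *Prdx2* and *Ube2m*. *Elavl4* was most like *Trim2* (0.973), *Rab2a* and *Sft2d1*, *Elavl2* like *Mycbp2* (0.953), *Dst* and *Ubald1*, and *Rbpms* like *S100a10* (0.973), *Ramp3* and *Rph3a*. *Srrm4* was nearest to *Fam110a* (0.964), *Eif4g2* and *Bcl7a*, and *Srrm3* to *Rundc3a* (0.976), *Coro2b* and *Gabarapl1*. *Ptbp1* was nearest to *Itgb3bp* (0.992), *Toporsos* and *Cnbp*, and *Ptbp2* to *Ddx5* (0.954), *Zscan2* and *Rnmt*. *Msi1* was nearest to *Ascc3* (0.963), *Rad17* and *Abt1*, and *Msi2* to *Rap1gap* (0.935), *Pde4a* and *Mknk2*.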

How the data were processed

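Per the labels, GFP+ and GFP− cells sorted from dissociated retinas each gave 1 library of droplet single-cell 3′ RNA, and the authors made the deposited UMI counts per gene and cell with Cell Ranger 2.1.1 on mm10. The counts are raw and whole. Cells were kept with over 250 and under 3500 genes and a mitochondrial fraction under 0.25, the study's stated limits, its mitochondrial limit being read here as a fraction. Groups were set in each cell by UMIs of marker genes. For ratios in thinned cells they were set again from the thinned counts. Counts were summed per gate and group and scaled by the group's total UMIs to CPM, with exact Poisson intervals for levels, exact conditional binomial intervals for ratios and Clopper-Pearson intervals for shares of cells, all at 95% and for counting error only. An upper limit on a count of 0 is 3 counts of the group's total. With 1 library per gate no test across samples was possible, and a gene was called at 2-fold among genes with at least 50 UMIs in both sums together. The groups of fewer than 50 cells were left out.

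The 10 genes and the list of 50 further RNA-binding genes (*Rest* counted among them) were chosen with earlier results of these data known. Named genes were all 10, those of the list at 2-fold, and the 3 most like each of the 10 among genes with at least 20 CPM in some group. The *Otx2*/*Crx*, cone, RGC, neurogenic and *Elavl3* splits described as chosen after the levels were seen, and the newborn against AC/HC comparison, were added with the data in view. Alternatives were no upper gene limit, doublets left out (Scrublet in scanpy 1.11.5, expected rate 0.03), TMM factors (edgeR 4.0.16), means of per-cell values per 10000 UMIs, thinning to 3200 UMIs, no UMI minimum, 1.5-fold, and 1 more marker in every rule. Python 3.11.15, numpy 2.4.6, pandas 2.3.3, scipy 1.17.1 and R 4.3.3 were used. The counting intervals and calls were tested on simulated Poisson counts of the gate comparison only. Those counts follow the model the intervals assume and hold no variation between cells, so they check the calculation alone. Promoter windows came from RefSeq on GRCm38.p6, and gene positions from the GENCODE annotation of GRCm38.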

Additional observations from a re-analysis of the deposited data

How the results depend on the processing

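Over 291 counts of called genes and related-gene ratios, 260 stayed within 1.5 times or their interval and 31 moved. None of the related-gene ratios reversed, which a count of called genes could not do. Of 865 single-gene ratios, 758 stayed within counting error and 107 moved, 38 of these with TMM factors and 44 in thinned cells. The 865 include 196 with doublets left out, all unmoved, which tests little, as only 2 kept GFP+ and 0 kept GFP− cells were marked. None past 2-fold with enough UMIs changed side of 1, but 30 others did, 26 of them with an interval that included 1. The other 4 were *Elavl2* in GFP+ cone-like over differentiated RGC-like cells (0.910 with TMM factors) and, thinned, *Elavl3* in differentiated over newborn RGC-like cells (0.796) and *Ptbp2* (0.790) and *Srrm3* (0.831, too few UMIs for a call) in non-cycling over cycling neurogenic cells. TMM factors shifted the median log2 ratio of all genes by -0.33 between the gates and by -0.41 for GFP+ cone-like over RPC-like cells.

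Of the 10 genes, those higher between the gates were 2 in thinned cells and 4 at 1.5-fold (1 as reported). Those higher in cycling neurogenic cells were 5 at 1.5-fold (3), and those lower in non-cycling ones 1 at 1.5-fold (0). Those lower in differentiated RGC-like cells were 2 with no upper gene limit and 2 at 1.5-fold (1). Those higher in GFP+ cone-like over differentiated RGC-like cells were 2 with no upper limit, by per-cell means, thinned or with 1 more marker, and 4 at 1.5-fold (1). Over AC/HC-like cells, 1 was higher with TMM factors and 1 thinned (3), and 1 was lower with no upper limit (2).

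Of the 50 further genes, those higher were 1 thinned in cycling neurogenic cells (2), 3 thinned or with no upper limit in GFP− *Otx2*/*Crx* cells (1), 3 thinned in newborn RGC-like cells (6) and 7 thinned in differentiated RGC-like cells (11). With no upper limit, those lower were 1 in cycling neurogenic cells (3), 1 in newborn RGC-like cells (5) and 0 in the amino acid transporter split (1). Thinned, the *Fabp7* split gave 0 lower (1). The ratio of *Ptbp2* to *Ptbp1* in thinned cells was 0.546 and 0.532 in RPC-like cells without and with mitotic transcripts, 0.894 and 1.14 in cycling and non-cycling neurogenic cells, 2.35 in GFP− *Otx2*/*Crx* cells, 3.25 in newborn and 6.67 in differentiated RGC-like cells, and 1.72 in newborn RGC-like cells with no upper limit. In thinned cells the groups were set again, so they need not hold the same cells. The cause of these shifts was not tested.

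No paired analysis was possible because the labels give no replicate numbers and each gate is 1 library, and for the same reason no library was left out in turn. In the 272180 UMIs of GFP− cone-like cells, genes at a few CPM were below the limit of 3 counts.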
